A study of Mus musculus with 6 samples.

Results

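The circadian clock genes of the mouse gastric mucosa are 10 genes of the molecular clock: the activators Arntl (also called Bmal1), Clock and Npas2, the repressors Per1, Per2, Per3 and Cry1, the nuclear receptors Nr1d1 and Nr1d2, and the output factor Dbp. They were chosen by name among the array's probes that are not controls. The 10 genes had 12 probes, with 2 each for Dbp and Nr1d2, among 31690 genes and unnamed transcripts on the array. RNA was taken from the mucosa of the glandular stomach, separated from its muscle layer, of C57BL/6J mice. The A4gnt-null mice, which lack the enzyme that adds the terminal α1,4-linked N-acetylglucosamine to gland mucin, were 5, 10 and 50 weeks old, and the wild-type mice had the same ages. There was 1 mouse and 1 one-colour Agilent array for each genotype and age, 6 arrays in all, and nothing was pooled.

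The clock is a feedback loop of transcription that runs in most cells of the body. ARNTL pairs with CLOCK or NPAS2 and drives the Per, Cry, Nr1d and Dbp genes, and the PER and CRY proteins then block that pair. NR1D1 and NR1D2 repress Arntl through a sequence called the ROR element, which the ROR receptors activate, and DBP with its relatives TEF and HLF drives genes that hold a D-box. In mouse peripheral tissues Arntl RNA peaks at nearly the opposite time of day to Dbp RNA, with the Per genes near Dbp. The relation between Arntl and Dbp in a sample therefore depends on the hour of collection. That hour is not given in the sources used here, and its part in the differences below was not tested.

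The promoter windows that hold a clock element are shown because these elements are the letters through which the arms of the loop act on each other. RefSeq windows of build GRCm38, from 250 bases before to 50 after a start, were found for 9 of the 10 genes, in 13 windows; Per2 had none in the table used. Each sequence is written 5′ to 3′ on the gene's own strand, and capitals mark the motif. The motifs, searched on both strands, were the E-box CACGTG bound by the ARNTL pair, its variant CACGTT, the D-box TTACGTAA or TTATGTAA, and the ROR element by its name. The E-box was in 7.15% of the 32851 windows of the table, its variant in 4.685%, the D-box in 1.056% and the ROR element in 0.3835%. The Arntl window lies at chr7:113207261-113207560 on the plus strand and the Per1 window at chr11:69098699-69098998 on the plus strand. The Cry1 window lies at chr10:85185005-85185304 on the minus strand and the Per3 window at chr4:151044616-151044915 on the minus strand.
Arntl: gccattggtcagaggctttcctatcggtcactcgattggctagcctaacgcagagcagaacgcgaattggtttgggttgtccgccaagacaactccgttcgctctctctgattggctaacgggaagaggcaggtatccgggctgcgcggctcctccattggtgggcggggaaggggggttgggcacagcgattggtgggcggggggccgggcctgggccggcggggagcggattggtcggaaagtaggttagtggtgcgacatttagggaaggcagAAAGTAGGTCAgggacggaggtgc
Per1: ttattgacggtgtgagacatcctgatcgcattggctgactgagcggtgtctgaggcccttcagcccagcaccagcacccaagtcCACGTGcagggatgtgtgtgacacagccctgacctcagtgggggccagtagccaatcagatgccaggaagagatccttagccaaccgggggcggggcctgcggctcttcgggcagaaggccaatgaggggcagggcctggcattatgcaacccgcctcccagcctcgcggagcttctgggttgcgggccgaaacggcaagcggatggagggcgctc
Cry1: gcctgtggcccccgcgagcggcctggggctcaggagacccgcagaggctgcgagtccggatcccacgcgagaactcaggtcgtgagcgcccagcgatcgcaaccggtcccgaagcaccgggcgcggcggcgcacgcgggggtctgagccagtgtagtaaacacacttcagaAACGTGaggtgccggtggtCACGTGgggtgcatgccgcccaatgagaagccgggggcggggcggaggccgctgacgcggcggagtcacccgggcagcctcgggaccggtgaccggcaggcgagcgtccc
Per3: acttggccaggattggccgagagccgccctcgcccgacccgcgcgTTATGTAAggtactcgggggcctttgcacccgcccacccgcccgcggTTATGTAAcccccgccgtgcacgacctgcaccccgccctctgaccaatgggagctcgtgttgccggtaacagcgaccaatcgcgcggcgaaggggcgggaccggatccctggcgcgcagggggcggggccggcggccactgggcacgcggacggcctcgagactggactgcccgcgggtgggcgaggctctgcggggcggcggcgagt
With the first transcribed base as position 1 and no position 0, the ROR element of Arntl covers positions 27 to 37, in the second of its windows. The E-box of Per1 covers positions -166 to -161. Cry1 holds the variant at -79 to -74 and the E-box at -60 to -55. Per3 holds the D-box at -205 to -198 and again at -158 to -151. Nr1d1 holds the variant at -28 to -23. A match describes letters in these windows, not a bound site, and the windows of the other members held none of these letters.

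Of the 43020 spots of an array, 54.8% to 59.2% were well above background. The processed signal had its 75th percentile at 252.8 to 402.8 units. Values below are log2 signals relative to that percentile of the same array, so a value near 0 is as bright as the array's 75th percentile. The targeted gene A4gnt had signals of 2.30, 2.94 and 2.11 in the null arrays at 5, 10 and 50 weeks, all below background, against 165, 325 and 264 in the wild-type arrays. All 4 markers of surface mucous cells were tested, and their mean log2 value was 7.72 to 7.99 in null and 7.87 to 8.12 in wild-type arrays. RNA of other tissues varied between arrays. The mean of the smooth muscle markers was -0.81 to 1.40 in null and -1.93 to 1.67 in wild-type arrays, that of the liver markers -0.34 to 2.13 in null and 1.84 to 3.90 in wild-type arrays, and that of the pancreas markers -2.69 to 2.28 in null and -2.70 to 3.38 in wild-type arrays. Per the file headers, the null arrays were on 1 slide and the wild-type arrays on another, so slide and genotype cannot be told apart, whereas the ages lie within a slide. In this whole mucosa, fewer cells of a type and less RNA per cell cannot be told apart either.

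All 10 genes were tested with limma, and 7 of them were well above background on all 6 arrays. The exceptions were Cry1 with 3 arrays, Per2 with 4 and Per3 with 5. The brightness of the arrays over background thus limits what can be said of those 3 repressors. The largest range over the 6 arrays was that of Dbp, 2.67, and the smallest that of Clock, 0.49. A range of at least 1 was reached by 5 of the 10 genes (Arntl, Npas2, Per2, Per3 and Dbp), against 34.1% of the 17853 genes tested.

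**Figure D1:**
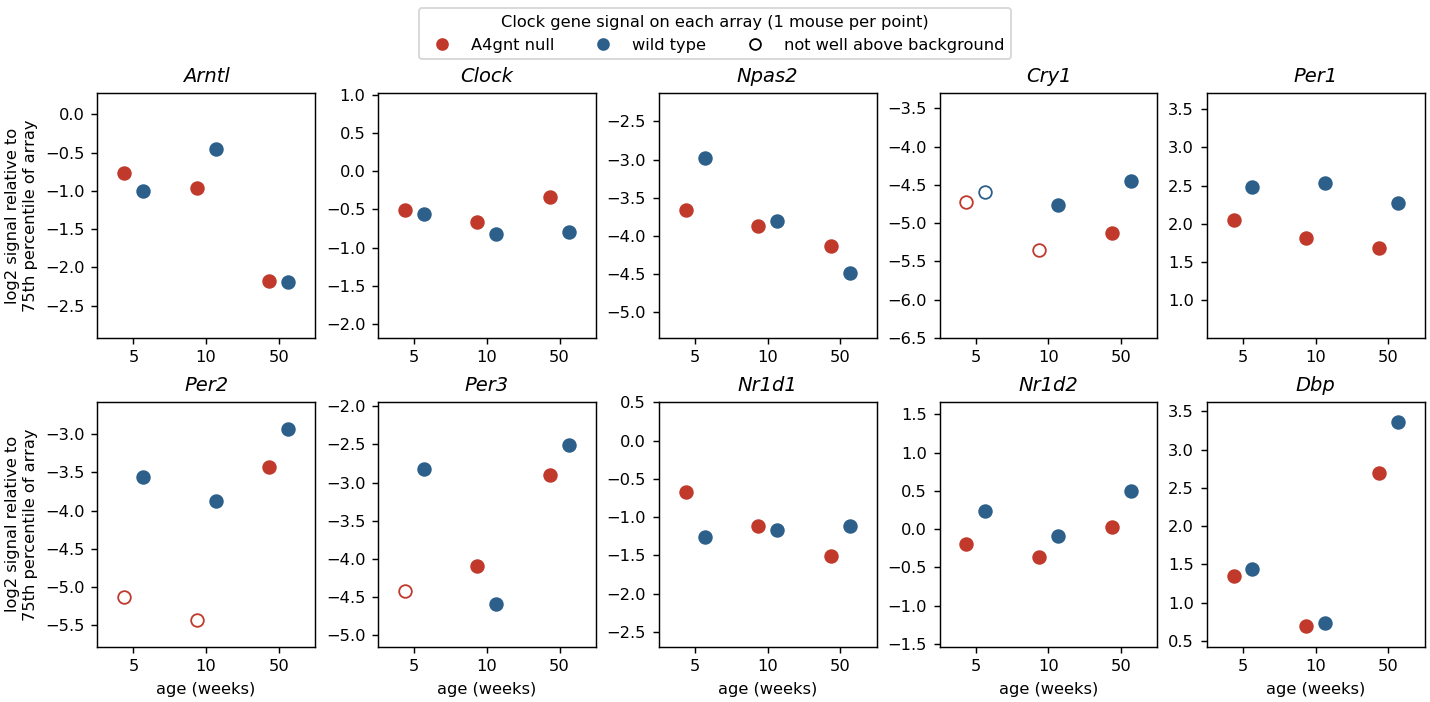
Log2 signal relative to the array's 75th percentile (vertical axis, the same span of 3.2 in every panel) for the 10 clock genes at each age in weeks, with A4gnt-null mice left of wild-type mice and 1 mouse per point. Open points were not well above background; Dbp is highest and Arntl lowest at 50 weeks in both genotypes, and Per1 is lower in the null mouse at every age.

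The members that set the 50-week mice apart were Dbp and Arntl, in opposite directions and in both genotypes. Dbp encodes a D-box activator whose RNA is among the most strongly rhythmic in mouse tissues. Its brighter probe, at chr7:52965461-52965520 of build mm9, read 1.35, 0.69 and 2.69 in null mice at 5, 10 and 50 weeks, against 1.43, 0.73 and 3.36 in wild-type mice. The corresponding signals were 645, 528 and 2608 units in null and 694, 593 and 2961 units in wild-type mice. Both 50-week arrays lay above all younger arrays, with no overlap. The difference between 50 and 10 weeks was 2.31 ± 0.22 (log2, SE of the limma fit, 2 arrays per age), which is 4.97-fold. Its unadjusted limma p was 0.000361 and its adjusted p over all genes 0.711, so it did not pass the threshold of 0.05. Between 50 and 5 weeks the difference was 1.63 ± 0.22 with a limma adjusted p of 0.217. The second Dbp probe, at chr7:52965322-52965381, gave 1.18, 0.82 and 2.75 in null and 1.55, 0.55 and 3.21 in wild-type mice, the same order by age in each genotype.

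Arntl, the activator without which the loop stops in mice, had the opposite order. Its probe, at chr7:120457261-120457320 of mm9, read -0.76, -0.96 and -2.17 in null mice at 5, 10 and 50 weeks, against -0.996, -0.45 and -2.19 in wild-type mice. Signals were 149, 168 and 89.3 units in null mice, and 129, 261 and 63.3 units in wild-type mice. Both 50-week arrays lay below the 4 younger ones and within 0.02 of each other on the log2 scale. The difference between 50 and 10 weeks was -1.48 ± 0.23 (log2, SE), with a limma adjusted p of 0.711, and that between 50 and 5 weeks was -1.304 ± 0.230, with a limma adjusted p of 0.217.

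Of the 10 genes, 2 (Per2 and Dbp) had both 50-week arrays above the 4 younger arrays, against 7.22% of all genes tested. A further 2 (Arntl and Npas2) had both below, against 6.74%. No member passed the adjusted threshold between 50 and 10 weeks, where 0% of all genes were called in either direction. At an unadjusted limma p under 0.05, 2.32% of all genes were higher and 4.52% lower at 50 than at 10 weeks; the members were 4 (Dbp, Per2, Per3 and Nr1d2) among the higher and 1 (Arntl) among the lower. Between 50 and 5 weeks 0.0112% of all genes passed the adjusted threshold as higher and 0% as lower, and no member did. At an unadjusted limma p under 0.05 there, 2 members (Dbp and Per2) were higher against 7.48% of all genes, and 2 (Arntl and Npas2) lower against 11.7%. The median absolute difference between 50 and 10 weeks was 0.48 for the 10 genes and 0.18 for all genes tested. Between 50 and 5 weeks within a genotype, it was 0.653 for the 10 genes and 0.323 for all genes in null mice. In wild-type mice it was 0.286 for the 10 genes and 0.297 for all genes, so the members did not exceed all genes there.

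Counted within a genotype, where 1 mouse faces 1 mouse and no test is possible, 8 members were well above background at both 50 and 10 weeks in null mice. Of these, 2 (Dbp and Per3) were at least 2-fold higher at 50 weeks, against 0.567% of all genes, and 1 (Arntl) at least 2-fold lower, against 2.47%. In wild-type mice 10 members could be counted: 2 (Dbp and Per3) were at least 2-fold higher, against 2.42% of all genes, and 1 (Arntl) at least 2-fold lower, against 3.55%.

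The other members whose 50-week values stood apart were dimmer. Npas2, a relative of Clock that pairs with ARNTL, read -3.66, -3.87 and -4.13 in null mice at 5, 10 and 50 weeks, against -2.98, -3.81 and -4.48 in wild-type mice. Its difference between 50 and 5 weeks was -0.99, with a limma adjusted p of 0.23, and the 50-week values were the lowest of each genotype. Per2, a repressor of the ARNTL pair, read -5.12, -5.43 and -3.43 in null mice, against -3.56, -3.88 and -2.93 in wild-type mice; the null arrays at 5 and 10 weeks were not well above background. In null mice Per2 was thus at least 2.62-fold higher at 50 than at 10 weeks and at least 2.21-fold higher than at 5 weeks, each bound taken from the lowest signal called well above background on the dim array. In wild-type mice the 50-week value was 0.95 above that at 10 weeks and 0.63 above that at 5 weeks (log2, 1 mouse each).

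Per3, the PER relative whose window holds both D-boxes shown above, read -4.42, -4.09 and -2.90 in null mice at 5, 10 and 50 weeks, against -2.82, -4.59 and -2.50 in wild-type mice. Each genotype had its highest value at 50 weeks, but the wild-type mouse at 5 weeks was above the null mouse at 50 weeks, so the ages overlapped. The difference between 50 and 10 weeks was 1.64 ± 0.54 (log2, SE) with an unadjusted limma p of 0.036 and an adjusted p of 0.711. Nr1d2, a repressor of Arntl, was 0.49 ± 0.14 higher at 50 than at 10 weeks, with an unadjusted limma p of 0.024. Both dim PER genes depend on the background correction: with normexp the difference between 50 and 10 weeks was 0.36 for Per2 and 0.46 for Per3, in place of 1.48 and 1.64. So does Npas2, whose difference was -0.14 in place of -0.46. Npas2 was above background on all 6 arrays. Its signal in the wild-type mouse of 50 weeks was 12.9 units, where the lowest called above background was 10.9.

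Clock, Per1, Cry1 and Nr1d1 differed less between 50 and 10 weeks, by 0.18, -0.19, 0.27 and -0.17 on the log2 scale. Their 95% intervals were -0.28 to 0.64 for Clock, -0.60 to 0.22 for Per1, -0.26 to 0.81 for Cry1 and -0.92 to 0.58 for Nr1d1. Differences of the size of these bounds could thus have been missed. Clock RNA is known to vary little over the day in mouse tissues, and it had the narrowest range here.

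**Figure D2:**
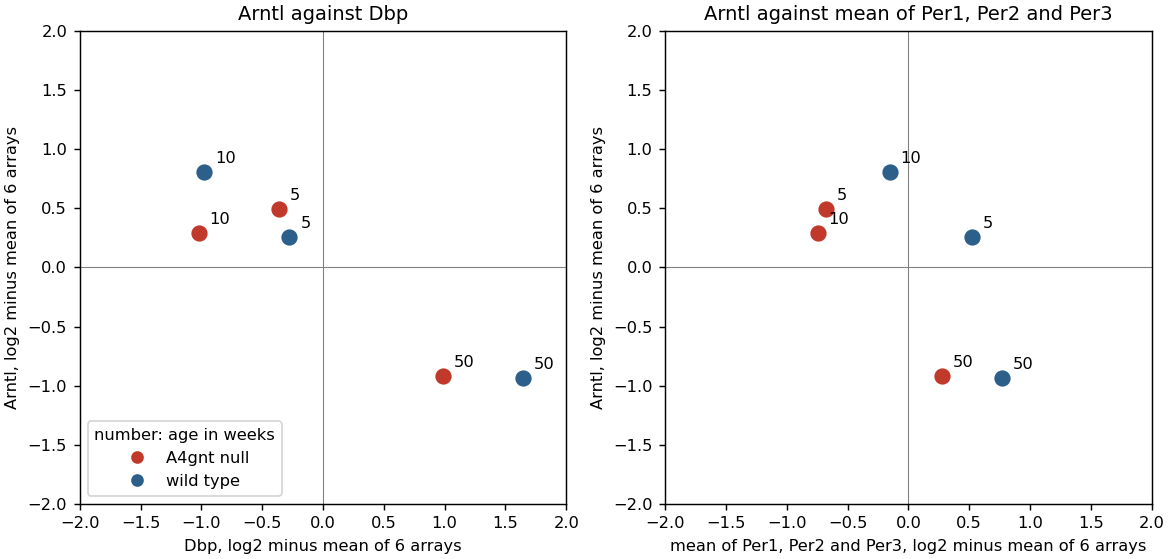
Arntl (vertical axis) against Dbp (left) and against the mean of Per1, Per2 and Per3 (right), each as log2 signal minus the gene's own mean over the 6 arrays, with A4gnt-null mice in red, wild-type mice in blue and age in weeks beside each point. The 50-week mice of both genotypes lie at the lower right of both panels, and in the left panel the 4 younger mice lie at the upper left.

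The relation of Arntl to Dbp within an array does not depend on how arrays are scaled to each other, because a shift of a whole array cancels. Each gene was centred on its own mean over the 6 arrays, and Dbp was subtracted from Arntl. The result was 0.854, 1.31 and -1.903 in null mice at 5, 10 and 50 weeks, against 0.54, 1.78 and -2.58 in wild-type mice. Arntl was thus relatively high and Dbp relatively low in all 4 younger mice, and the reverse held in both 50-week mice. Null minus wild type, this measure was 0.32, -0.47 and 0.68 at 5, 10 and 50 weeks. The mean of those was 0.18 ± 0.59 (SD over 3 ages), so the genotypes differed by less than the spread between ages. Within a genotype the difference of 50 from 10 weeks was -3.22 in null and -4.36 in wild-type mice. That of 50 from 5 weeks was -2.76 in null and -3.12 in wild-type mice. The 3 differences between the genotypes were each smaller in size than these 4. Between 10 and 5 weeks the measure differed by 0.46 in null and 1.25 in wild-type mice.

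With the mean of Per1, Per2 and Per3 in place of Dbp, the measure was 1.17, 1.04 and -1.20 in null mice at 5, 10 and 50 weeks, against -0.27, 0.96 and -1.71 in wild-type mice. The 50-week mice again had the lowest values, but Arntl is part of both measures. Between 50 and 10 weeks Per1, the only bright gene of the 3, differed by -0.13 in null and -0.26 in wild-type mice. The higher Per mean at 50 than at 10 weeks thus came from the dim Per2 and Per3. The wild-type mouse of 5 weeks stood between the other young mice and the old ones, 1.44 below the null mouse of its age, whereas at 10 weeks the genotypes differed by 0.08 and at 50 weeks by 0.51. At 5 weeks Per2 and Per3 were below background in the null mouse, and at 10 weeks Per2 was, so the values of both null mice and the genotype differences at these ages rest on signals near the floor. The mean difference between the genotypes was 0.68 ± 0.69 (SD over 3 ages), and 0.23 ± 0.33 with normexp background correction.

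**Figure D3:**
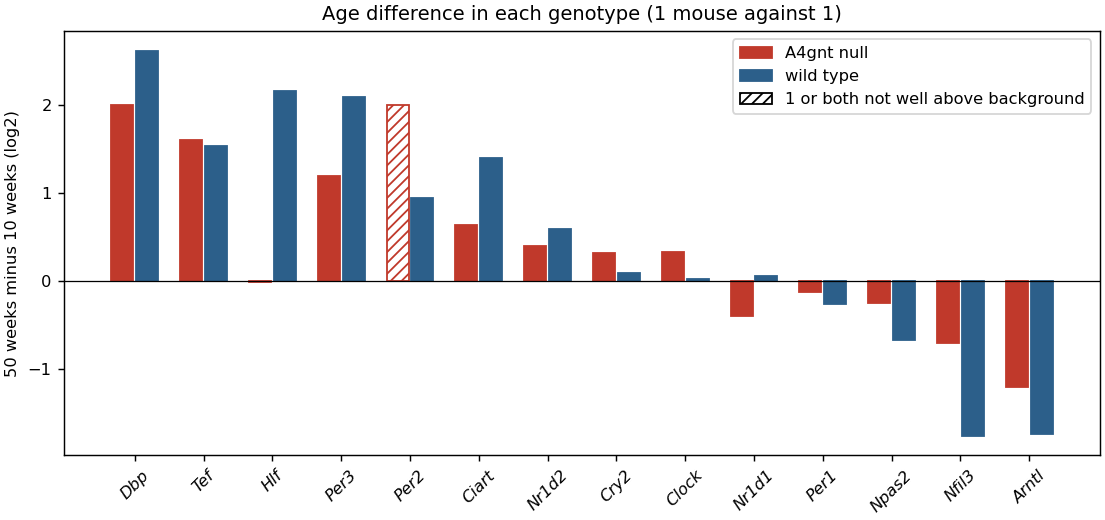
Difference between 50 and 10 weeks (log2, vertical axis) in A4gnt-null mice (red, left bar) and wild-type mice (blue, right bar) for clock genes and related factors, 1 mouse against 1. Hatched bars rest on a signal not well above background. Dbp, Tef and Per3 are more than 1 above 0 and Nfil3 and Arntl are the lowest bars in both genotypes.

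Other clock components were examined as a list of 17 genes, of which 15 were tested. Rorb and Fbxl21, a receptor of the nervous system and an F-box protein that targets CRY, were below background on every array. Tef, the D-box activator related to Dbp, read 2.23, 1.62 and 3.23 in null mice at 5, 10 and 50 weeks, against 3.30, 2.07 and 3.61 in wild-type mice. Its lowest value was at 10 weeks and its highest at 50 weeks in each genotype, as for Dbp, and the difference between 50 and 10 weeks was 1.57 ± 0.23 (log2, SE; limma adjusted p = 0.711). Hlf, the remaining relative, read -4.76, -3.76 and -3.77 in null mice, against -3.60, -4.02 and -1.86 in wild-type mice, and was highest at 50 weeks in the wild type; the null array at 5 weeks was not well above background.

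Some members of that list were singled out after their values were seen. Nfil3, a repressor that competes for the D-box, read -0.01, -0.60 and -1.31 in null mice at 5, 10 and 50 weeks, against -0.31, 0.72 and -1.04 in wild-type mice. Like Arntl it was lowest at 50 weeks in both genotypes. Ciart, a repressor of the ARNTL pair, read -4.27, -3.75 and -3.11 in null and -4.44, -4.48 and -3.08 in wild-type mice, highest at 50 weeks in both. It was not well above background at 5 weeks in either. Over the 15 genes tested, 2 (Bhlhe41 and Ciart) had both 50-week arrays above the younger ones, Nfil3 and Csnk1e were among those with both below, and none passed an adjusted test of age.

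Genes were ranked by how closely they followed Arntl or Dbp over the 6 arrays, among 4509 genes above background on all arrays with a range of at least 1. The 5 closest to Arntl were Pappa with a Pearson r of 0.989, the unnamed transcript ENSMUST00000111548 with 0.983, Pim3 with 0.969, Rcsd1 with 0.967 and Nr5a1 with 0.966. The 5 closest to Dbp were Ces1f with 0.959, Smim24 with 0.948, the unnamed transcript ENSMUST00000118206 with 0.938, Cracd with 0.934 and C1qtnf12 with 0.932. Neither list holds a clock gene, but the filter had already shut out most of the 10 members. Per2, Per3 and Cry1 were not above background on all arrays, and Clock, Per1, Nr1d1 and Nr1d2 had ranges below 1. Nfil3 ranked 48 for Arntl and Tef ranked 24 for Dbp. With 6 arrays that share 2 old mice at one end, such ranks describe these libraries.

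Between the genotypes, the median absolute difference was 0.33 for the 10 clock genes and 0.25 for all genes tested. Per1, Per2, Cry1, Nr1d2 and Dbp were lower in the null mouse at all 3 ages, which is 5 of the 10 genes against 26.1% of all genes tested. This count uses the brighter probe of a gene. The second probes of Dbp and Nr1d2 were higher in the null mouse at 10 weeks, by 0.27 and 0.03. Cry1 was not well above background in either genotype at 5 weeks, nor in the null mouse at 10 weeks. Per2 was not well above background in the null mice of 5 and 10 weeks. The count thus rests in part on signals near the floor. Clock was higher at all 3 ages, 1 of 10 against 26.1%. No member passed the adjusted threshold, and neither did any gene: 0% of the 17853 genes were called higher and 0% lower. At an unadjusted limma p under 0.05, 4 of the 10 (Per1, Per2, Cry1 and Nr1d2) were lower in null mice against 12.6% of all genes, and 0 were higher against 11%. That count changed with the processing. The unadjusted limma p of Cry1 was 0.112 with normexp background correction, and that of Nr1d2 was 0.0716 with a gene's probes averaged. Per1 and Per2 stayed under 0.05 in both of these settings, but not in all settings. The unadjusted limma p of Per1 was 0.0577 without the 50-week mice. With no age term it was 0.0711 for Per2, 0.0550 for Cry1 and 0.0962 for Nr1d2.

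Per1 was the member whose genotypes did not overlap. Its probe, at chr11:68923364-68923423 of mm9, read 2.05, 1.81 and 1.69 in null mice at 5, 10 and 50 weeks, against 2.48, 2.53 and 2.27 in wild-type mice. All 3 null values were below all 3 wild-type values, as in 11.3% of all genes tested; no member had all null values above, as 12.5% of genes did. The difference was -0.58 ± 0.12 (log2, SE, n = 3 ages), or 1.49-fold lower in null mice, with an unadjusted limma p of 0.008 and an adjusted p of 0.145. Per1 RNA is also known to be raised by glucocorticoids in mouse tissues, and their part in this difference was not tested.

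Per2, at chr1:93313046-93313105 of mm9, was dim, and the size of its genotype difference depends on signals near background. Its signals were 7.25, 7.58 and 37.5 units in null mice at 5, 10 and 50 weeks, against 21.8, 24.3 and 38.0 units in wild-type mice. It was lower in null mice by at least 2.01-fold at 5 weeks and by at least 1.92-fold at 10 weeks, whereas the 50-week mice differed by -0.50 on the log2 scale. The fitted difference was -1.21 ± 0.27 with a limma adjusted p of 0.149, and -0.29 with normexp background correction. Per3 was lower in the null mouse of 5 weeks by at least 3.03-fold. At 10 and 50 weeks it differed by 0.50 and -0.39 (log2, null minus wild type), so its direction was not the same at all ages.

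Cry1, which with the PER proteins blocks the ARNTL pair, read -4.72, -5.36 and -5.13 in null mice at 5, 10 and 50 weeks, against -4.59, -4.77 and -4.44 in wild-type mice. These signals, none above 13.3 units, were close to the lowest called above background, 10.1 to 11.6 units. Only the 50-week arrays and the wild-type array at 10 weeks were above it, so the fitted difference of -0.47 ± 0.16 (log2, SE; limma adjusted p = 0.198) rests on dim spots. Nr1d2 read -0.19, -0.37 and 0.03 in null mice, against 0.24, -0.10 and 0.49 in wild-type mice by its brighter probe. The second probe differed by -0.65, 0.03 and -0.20 at 5, 10 and 50 weeks (null minus wild type), so the probes disagreed at 10 weeks.

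**Figure D4:**
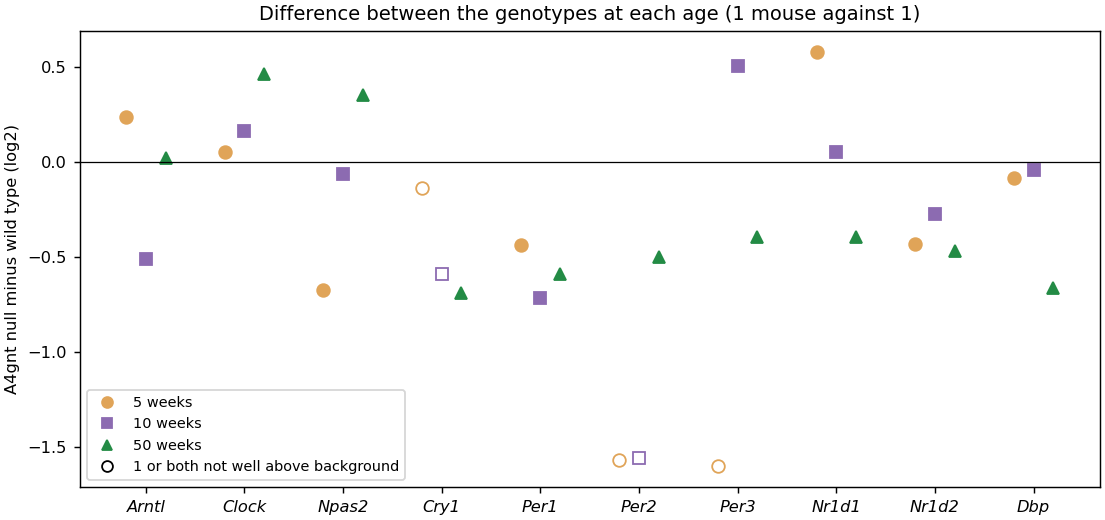
Log2 signal of the A4gnt-null mouse minus that of the wild-type mouse of the same age (vertical axis) for each clock gene, with circles for 5, squares for 10 and triangles for 50 weeks. Open symbols rest on a signal not well above background; by the brighter probe of each gene, Per1, Per2, Cry1, Nr1d2 and Dbp lie below 0 at every age, and Clock above it.

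The activators and Nr1d1 had no common direction or a small one. Clock read -0.51, -0.66 and -0.33 in null mice at 5, 10 and 50 weeks, against -0.56, -0.83 and -0.80 in wild-type mice, a difference of 0.23 with a 95% interval of -0.15 to 0.60. Arntl differed by -0.09 with an interval of -0.60 to 0.43, and Npas2 by -0.13 with an interval of -0.77 to 0.52. Nr1d1, a haem-binding repressor of Arntl, read -0.68, -1.12 and -1.51 in null mice, against -1.26, -1.17 and -1.12 in wild-type mice. The null mice of 5 and 10 weeks were above the wild-type mice of their age and the null mouse of 50 weeks below. The null minus wild-type difference of Dbp was -0.08, -0.04 and -0.66 at 5, 10 and 50 weeks by its brighter probe. By its second probe it was -0.36, 0.27 and -0.46, so the probes disagreed in sign at 10 weeks. No member passed the test of a genotype difference that changes with age (limma, smallest adjusted p over all genes 0.9996).

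Among the other clock components, 6 of 15 were lower in the null mouse at all 3 ages and 2 were higher, against 26.1% of all genes each way, and none passed the adjusted threshold. Cry2, the second cryptochrome, differed by -0.92 ± 0.20 (log2, SE) with a limma adjusted p of 0.147, and Tef by -0.64. Of the 7 clock output genes, 3 were lower and 1 was higher in the null mouse at all ages, again against 26.1% each way. Usp2, a deubiquitinase with a rhythmic RNA, differed by -1.40 ± 0.18 and Wee1, a kinase that delays mitosis, by -0.86 ± 0.11, both with a limma adjusted p of 0.110. Alas1, the rate-limiting enzyme of haem synthesis in liver, differed by 0.72 ± 0.23 (adjusted p = 0.190).

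Markers of gastric cells differed between the genotypes beside these genes. All 6 of the tested parietal cell markers and all 4 chief cell markers were lower in the null mouse at every age, with list means of 1.34 to 2.85 in null and 2.64 to 3.47 in wild-type mice for parietal cells. For chief cells the means were 4.94 to 6.29 in null and 6.25 to 6.99 in wild-type mice. All 4 gland mucous markers and all 4 markers of dividing cells were higher, the gland mucous list lying at 5.98 to 7.11 in null and 4.38 to 5.65 in wild-type mice, and the dividing-cell list at 1.29 to 2.70 in null and 0.17 to 2.19 in wild-type mice. Of the 5 fibroblast markers 4 were higher in the null mouse at all ages, with means of 1.21 to 1.63 in null and 0.29 to 1.07 in wild-type mice. The mean of 8 reference genes was also higher, 5.97 to 6.07 in null and 5.74 to 5.95 in wild-type mice. No marker passed the adjusted threshold. The parietal marker Hrh2 was not well above background in the null mice of 10 and 50 weeks, and the other markers of these 5 cell types were above it on all 6 arrays. The part of this cell make-up in the lower Per1, Per2, Cry1 and Nr1d2 values was not tested.

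Cell markers also differed with age. Within each genotype the parietal mean was lowest at 50 weeks, at 2.85, 1.55 and 1.34 in null mice of 5, 10 and 50 weeks, against 3.47, 3.19 and 2.64 in wild-type mice. So was the chief cell mean, at 6.29, 5.74 and 4.94 in null mice, against 6.88, 6.99 and 6.25 in wild-type mice. Across the genotypes these means overlapped between the ages, as did those of 10 of the 11 marker lists. The mean of the 3 endothelial markers did not overlap, at -1.68 to -1.47 at 50 weeks and -1.37 to -0.94 in the younger mice. Other lists moved further from 10 to 50 weeks, but unequally in the genotypes. The dividing-cell mean went from 0.38 to 2.19 in wild-type and from 2.69 to 2.70 in null mice. Smooth muscle went from 0.88 to 1.67 in wild-type and from 1.40 to -0.81 in null mice. Liver went from 3.90 to 2.03 in wild-type and from -0.01 to -0.34 in null mice. Pancreas went from -2.70 to 1.58 in wild-type and from -2.69 to -2.26 in null mice. The part of these cells and tissues in the Arntl and Dbp values at 50 weeks was not tested.

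Glucocorticoid-responsive genes were set beside the clock because adrenal hormones follow the time of day and act on Per1 in mice. Of 11 such genes, 8 were lower in the null mouse at all 3 ages and 0 were higher, where 26.1% of all genes tested were lower and 26.1% higher. Their median difference was -0.65, against a median of -0.02 over all genes tested. None passed the adjusted threshold. Fkbp5, a chaperone partner of the glucocorticoid receptor, read 3.79, 2.87 and 1.53 in null mice at 5, 10 and 50 weeks, against 3.67, 4.17 and 2.29 in wild-type mice. Fkbp5 and the zinc finger gene Zbtb16 were the 2 of 11 with both 50-week arrays below the younger ones. Pdk4, which slows glucose oxidation, differed by -1.73 ± 0.46 between the genotypes (log2, SE, limma adjusted p = 0.168) and the kinase gene Sgk1 by -1.15 ± 0.24 (adjusted p = 0.144). The part of adrenal hormones in these values was not tested. Slide and the gastric cell markers differed between the genotypes as well.

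**Figure D5:**
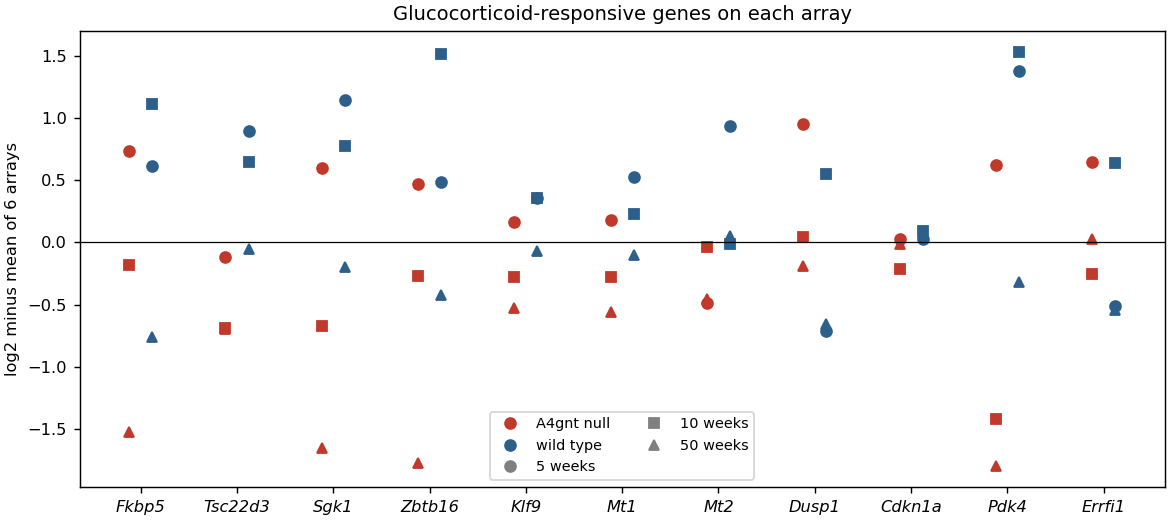
Log2 signal of 11 glucocorticoid-responsive genes minus each gene's mean over the 6 arrays (vertical axis), with A4gnt-null mice in red at the left and wild-type mice in blue at the right of each gene, and circles, squares and triangles for 5, 10 and 50 weeks. Fkbp5 and Zbtb16 have both 50-week triangles below the other symbols; symbols of like value lie over each other.

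The list of genes that respond to fasting, another signal that sets clocks of the gut, gave the same direction between the genotypes. All 5 were lower in the null mouse at every age, against 26.1% of all genes, with a median difference of -0.69, and none passed the adjusted threshold. Angptl4, an inhibitor of lipoprotein lipase, differed by -0.96 ± 0.23 (log2, SE; limma adjusted p = 0.154). The cold-inducible RNA-binding genes, whose RNA follows body temperature, did not share a direction. Cirbp differed by -0.01 and Rbm3 by 0.81 between the genotypes. Feeding state, like the hour of collection, is not given in the sources used here, and its part was not tested.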

How the data were processed

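Mucosal RNA of 6 mice was labelled with Cy3, per the labels. Per the file headers, Agilent Feature Extraction 10.7.1.1 turned each spot's fluorescence intensity into a processed signal with background subtracted. The authors also deposited log2 values that equal the log2 processed signal plus a constant per array (-7.88 to -8.54, within 0.001 for 99.2 to 99.3% of probes; their direction is that of the signal, and why these constants were used is not known); column medians were -3.56 to -3.89, and the table was used only as an alternative.

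Here, log2 of the processed signal minus the array's 75th percentile was used, without flagged spots (98 to 144 per array; 0 saturated) and with replicate spots averaged (median SD 0.0606 to 0.0707). Of 39399 probes used, 26044 were named by accession, 3194 by symbol, 929 by synonym and 9232 by the array's name; the brightest probe stood for a gene. Genes well above background on at least 3 arrays were fitted with limma 3.58.1 in R 4.3.3 on genotype and age as a factor, with Benjamini-Hochberg adjustment over 17853 genes and a threshold of 0.05. SE and intervals come from 2 residual and 2.12 prior degrees of freedom. Age forms the pairs by design, with 1 mouse per genotype and age, and the mice are separate animals. Where a gene was dim on 1 array, a fold is a bound. The fit was tested on simulated data. The members and lists were chosen with earlier results of these data known. Named were all members, up to 6 genes of each clock, hormone, fasting or cold list by size of the genotype difference, and the 5 genes closest to Arntl and to Dbp; others are said to be chosen later, and a few list genes are not reported here. Alternatives were normexp, quantile normalization, the deposited table, probe averaging, other filters, a variance trend, no age term and leaving out each age.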

Additional observations from a re-analysis of the deposited data

Results flagged for a closer look

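Several clock genes had genotype differences of opposite direction at different ages, or age differences of opposite direction in the genotypes. Only differences with every array well above background were compared. Each such difference compares single mice and was not tested by itself, and the trend test over age called no gene. For Arntl, null minus wild type was 0.24 at 5 weeks and -0.51 at 10 weeks, a gap of 0.745. It was 0.02 at 50 weeks, a gap of -0.529 between 10 and 50 weeks. Put by age, Arntl at 10 weeks minus 5 weeks was -0.20 in null and 0.54 in wild-type mice, a gap of -0.745.

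For Npas2, null minus wild type was -0.67 at 5 weeks, -0.06 at 10 weeks and 0.35 at 50 weeks, so that the gap was -1.03 between 5 and 50 weeks and -0.419 between 10 and 50 weeks. For Per3 it was 0.50 at 10 weeks and -0.39 at 50 weeks, a gap of 0.896. For Per1, the difference between 10 and 5 weeks was -0.23 in null and 0.05 in wild-type mice, a gap of -0.282. For Clock, the difference between 50 and 5 weeks was 0.17 in null and -0.24 in wild-type mice, a gap of 0.412.

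Nr1d1 had the most such reversals, though some of its gaps are the same contrast put by genotype and again by age. Null minus wild type was 0.58 at 5 weeks, 0.05 at 10 weeks and -0.39 at 50 weeks, with gaps of 0.974 between 5 and 50 weeks and 0.449 between 10 and 50 weeks. By age, the difference between 50 and 10 weeks was -0.39 in null and 0.05 in wild-type mice, a gap of -0.449. Between 50 and 5 weeks the values were -0.84 in null and 0.14 in wild-type mice, a gap of -0.974, and between 10 and 5 weeks -0.44 in null and 0.08 in wild-type mice, a gap of -0.525.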

How the results depend on the processing

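Over the alternatives, 102 of the members' genotype values kept their direction and side of the threshold and 5 turned; for 50 against 10 weeks 66 kept them and 1 turned. In the 7 settings run, the difference between 50 and 10 weeks was 2.18 to 2.32 for Dbp (limma adjusted p 0.0891 to 0.957) and -1.48 to -1.01 for Arntl (0.670 to 0.957). The cause of the turns below was not tested. The genotype value of Npas2 became 0.030 with quantile normalization and 0.15 without the 5-week mice (-0.13 in the analysis reported); without those mice that of Per3 became 0.055 (-0.50) and that of Nr1d1 -0.17 (0.08). Without the 10-week mice that of Arntl became 0.13 (-0.09). With normexp the value of Cry1 for 50 against 10 weeks became -0.066 (0.27), and the Arntl measure against the Per genes for 50 minus 10 weeks averaged -1.22 (-2.45). Without one age at a time, Arntl against Dbp between the genotypes averaged -0.07 to 0.50, Arntl against the Per genes 0.30 to 0.97, and the median of the 10 genotype values -0.39 to -0.30. Per1 kept adjusted p values of 0.0797 to 0.405.

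The number of genes called between the genotypes was 0 (4216 at an unadjusted p under 0.05), and 0 without any one age. It was 188 with normexp (96 higher, 92 lower), 41 with a variance trend (28 higher, 13 lower), 1 with quantile normalization, and 6 with no replicate block, that is without pairing the mice by age. None of the 10 clock genes had an adjusted p under 0.05 in any of these settings. Between 50 and 5 weeks 2 genes were called, 13 with normexp, 5 with a variance trend and 0 with either other filter on dim genes; between 10 and 5 weeks 2 were called, 5 with normexp and 0 with either filter. Signal over background limits Cry1, Per2 and Per3, Npas2 is dim as well, and 1 mouse per genotype and age limits everything.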
